A study of Homo sapiens with 2 samples.

Results

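The genes described here are the translation initiation factors of SF-539 cells, a human glioblastoma (GBM) line, in a library with control shRNA and a library with shRNA against FKBP9. They were taken as every protein-coding gene whose symbol begins with EIF followed by a digit, without the eIF2 kinases EIF2AK1 to EIF2AK4, and they numbered 52 of the 58735 genes in the deposited table. EIF3CL, a near-identical copy of EIF3C, was kept as a gene of its own and was also summed with EIF3C. EIF1AY lies on chromosome Y and is named without a value.

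The study asked how loss of FKBP9, a peptidyl-prolyl isomerase of the endoplasmic reticulum, alters GBM cells. SF-539 cells were infected with pGIPZ lentivirus that carried either control shRNA (shControl) or shRNA against FKBP9 (shFKBP9), and infected cells of both groups were selected with puromycin as stable clones. How many clones entered each group, and which of the study's several FKBP9 shRNAs the sequenced cells carried, is not given in the sources used here. RNA was sequenced as 1 library per condition, so the differences below had no replicate check and no test between the conditions was possible.

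Translation of most mRNAs begins when a small ribosomal subunit, loaded with initiator tRNA by eIF2, is brought to the capped 5′ end of an mRNA by the eIF4 factors and scans to a start codon. eIF3, the largest of the initiation factors, is a complex of many subunits that holds the small subunit, the mRNA and the other factors together, and EIF3C is part of its core. Stress in the endoplasmic reticulum lowers initiation by phosphorylation of eIF2 through the kinase PERK, encoded by EIF2AK3, and mTOR controls it through the 4E-binding proteins.

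The deposited values were FPKM, that is, sequenced fragments scaled by gene length and by library size. Every FPKM could be turned back into a whole number of fragments, and these summed to 18116873 in shControl and 17158514 in shFKBP9. The initiation factor genes took 169540 fragments in shControl, or 0.936%, and 157324 in shFKBP9, or 0.917%. Log2 ratios are shFKBP9 over shControl after 0.1 was added to both FPKM values, and the interval beside a ratio is the exact 95% (Clopper-Pearson) interval of the fragment ratio without that addition. It covers counting error only and says nothing of the spread between cultures. The targeted gene, FKBP9, was at 49.8 FPKM in shControl and 4.68 FPKM in shFKBP9, a log2 ratio of -3.38 (interval -3.56 to -3.27).

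The labels call the line epithelial glioma cells. The mesenchymal markers VIM, CD44 and FN1 were high in both libraries, at 630.7 FPKM together in shControl and 657.7 in shFKBP9. Of 4 epithelial markers only KRT8 reached 1 FPKM, and CDH1 had 0 fragments in shControl against 1 in shFKBP9. Of 5 neural and glioma markers only NES reached 1 FPKM, and GFAP had 43 and 29 fragments. The 4 keratinocyte genes searched had 9 fragments in shControl against 62 in shFKBP9 (0.127 and 1.24 FPKM summed), with KRT17 and KRT6A at 0 in shControl, and the 6 blood and plasma cell genes had 6 and 44 (0.224 and 1.70 FPKM summed), with IGHG1 and IGKC at 0 in shControl and PTPRC at 0 in both. Their part in the values below was not tested.

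EIF3C and EIF3CL lie on opposite strands of chromosome 16, and their reference sequences are shown first because they limit how far counts on each can be told apart. Over 24267 aligned bases of the 2 loci, 24240 (99.9%) were identical, and 3 of the 22 differences fell in an EIF3C exon. The canonical transcripts of GENCODE release 44, of 2910 and 2913 bases, had 0 substitutions and 1 difference, a GAG codon in exon 9 that only EIF3CL carries. The stretch of exon 9 around that codon is printed for both copies from hg38, 5′ to 3′ on the strand of the gene. The codon of EIF3CL is in capitals. The repeat of GAG codons means that the extra codon could be drawn at any of them.
EIF3C exon 9, chr16:28723219-28723295 (+): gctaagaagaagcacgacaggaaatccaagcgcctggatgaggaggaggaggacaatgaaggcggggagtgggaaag
EIF3CL exon 9, chr16:28392008-28392087 (−): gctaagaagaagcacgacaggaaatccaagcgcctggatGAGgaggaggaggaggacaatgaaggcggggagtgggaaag

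The other exonic differences were single bases in a long exon block of EIF3C (chr16:28721255-28723323) that includes intron sequence kept in some annotated transcripts. One of them is shown with its surroundings, the differing base in capitals, because nearly all of the remaining exonic sequence is shared.
EIF3C retained intron, chr16:28722419-28722479 (+): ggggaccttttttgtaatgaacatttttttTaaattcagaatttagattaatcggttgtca
EIF3CL intron, chr16:28392827-28392887 (−): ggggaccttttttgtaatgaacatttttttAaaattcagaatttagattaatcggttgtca

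Of 4764 windows of 100 bases within the exon blocks of EIF3C, 252 (5.29%) occurred once on chromosome 16, and these lay in that 1 block of the 23. In the spliced canonical transcript of EIF3C, 97.0% of such windows were also found in transcripts of other genes, and in that of EIF3CL 96.9%. Fragments from the coding mRNA of either copy therefore match both loci except across the exon 9 codon. How the authors' counting treated fragments with several matches is not given in the sources used here.

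EIF3C (ENSG00000184110, chr16:28688558-28735730, plus strand) was the initiation factor gene with the largest difference among those at or above 1 FPKM. It was at 14.1 FPKM in shControl and 5.68 FPKM in shFKBP9, from 1786 and 681 fragments. The log2 ratio was -1.30 (interval -1.44 to -1.19), so that 40.2% of the shControl level remained. EIF3CL (chr16:28379579-28403879, minus strand) was at 1.57 and 1.24 FPKM, from 88 and 66 fragments, with a log2 ratio of -0.32 (interval -0.82 to 0.14), or -0.20 and within 1.2-fold with 1 FPKM added. The whole interval of EIF3C lay past 2-fold, and that of EIF3CL included 0. Where along EIF3C its fragments fell cannot be read from the deposited values. How far its ratio rests on the 1 exon block of 23 with windows unique on chromosome 16 was not tested.

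The sum of the 2 copies does not depend on how the counted fragments were divided between them, though fragments counted at neither locus would be missing from it. EIF3C and EIF3CL together held 1874 fragments in shControl and 747 in shFKBP9, which over the gene length of EIF3C gave 14.8 and 6.23 FPKM. The log2 ratio of the sum was -1.24 (interval -1.37 to -1.13), and 42.0% of the shControl level remained. EIF3C supplied 95.3% of the sum in shControl and 91.2% in shFKBP9. The fragments assigned to EIF3CL numbered 88 in shControl and 66 in shFKBP9, and how shared fragments were divided between the copies was not tested.

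The other 12 EIF3 subunits were near their shControl levels. Their fragments summed to 44310 in shControl and 41795 in shFKBP9, a log2 ratio of -0.0075 (interval -0.027 to 0.012) with 99.5% remaining. Their single log2 ratios ran from -0.18 for EIF3I to 0.19 for EIF3A with a median of -0.0033. None of the 12 passed 1.2-fold in either direction, beside 6.54% higher and 7.13% lower among protein-coding genes with at least 1000 fragments, and the EIF3C and EIF3CL sum passed 2-fold.

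Among the subunits, the core scaffold EIF3A was at 46.1 FPKM in shControl against 52.7 in shFKBP9 (log2 ratio 0.19, interval 0.14 to 0.24). EIF3B, which binds EIF3A and carries an RNA recognition motif, was at 48.7 and 47.5 FPKM, a log2 ratio of -0.036. The small subunits EIF3G and EIF3I sit with EIF3B, and both were within 1.2-fold. EIF3G was at 58.5 and 53.3 FPKM (log2 ratio -0.14, interval -0.20 to -0.067), and EIF3I at 190.4 and 168.2 FPKM (log2 ratio -0.18, interval -0.23 to -0.12). EIF3J, a loosely bound subunit, was at 18.8 and 21.1 FPKM, a log2 ratio of 0.16 (interval 0.042 to 0.28).

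The other subunits of the octamer that EIF3A and EIF3C form with them gave values on both sides of 0. EIF3E was at 26.1 FPKM in shControl against 28.4 in shFKBP9 (log2 ratio 0.13, interval 0.051 to 0.20), and EIF3K was at 54.0 and 49.3 FPKM (log2 ratio -0.13, interval -0.21 to -0.053). The intervals of EIF3F, EIF3H, EIF3L and EIF3M included 0, with log2 ratios of 0.050, -0.0099, -0.075 and 0.023. EIF3D, which lies outside the octamer and can bind the mRNA cap itself, was at 61.3 and 61.4 FPKM (log2 ratio 0.0033). Of the windows in all EIF3L transcripts, 27.7% were shared, mostly with an overlapping annotated gene. Its count was therefore less certain than those of EIF3E, EIF3F, EIF3H, EIF3K and EIF3M, which shared fewer, while EIF3C shared more.

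In level, the sum of EIF3C and EIF3CL stood below most of its partners already in shControl. It reached 37.8% (36.1 to 39.5, counting error of the sum only) of the median of the other 12 subunits, which was 39.3 FPKM, and only EIF3M at 12.6 FPKM was lower. In shFKBP9 it reached 15.9% (14.8 to 17.1) of a median of 39.1 FPKM, and 0 of the 12 were lower. The order of the other subunits ran from EIF3I down to EIF3M in both libraries. These percentages depend on gene length and on how fragments that match both copies were counted, and the part of the latter was not tested. The file gives EIF3C 6982 bases, which include the retained introns, against 2910 in the canonical transcript. With canonical lengths for all subunits, an alternative chosen after the data were seen, the sum was at 54.9% of the median in shControl and 21.3% in shFKBP9, and the number of lower subunits was 3 and 0.

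For 5 genes around EIF3C, chosen after their values were seen, log2 ratios ran from -0.31 to 0.60. Towards higher coordinates, ATXN2L, TUFM and SH2B1 had log2 ratios of -0.14, -0.28 and -0.14. Between the 2 copies, SGF29 was at 3.38 and 2.71 FPKM (log2 ratio -0.31, interval -0.71 to 0.072), and NUPR1, a stress-induced chromatin protein, was at 3.17 and 4.88 FPKM (log2 ratio 0.60, interval 0.41 to 0.83).

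Across all 52 genes, 48 reached 1 FPKM in at least 1 library. Past 2-fold, 0 of the 48 were higher in shFKBP9 and 1, EIF3C, was lower. Among all protein-coding genes at the same minimum the shares were 0.213% higher and 0.193% lower, and among all genes 2.02% and 2.19%. Past 1.2-fold, 2 were higher (EIF2S2 and EIF4EBP2) and 3 lower (EIF3C, EIF3CL and EIF2S3B), and 43 lay within. Background shares past 1.2-fold were 9.11% higher and 10.9% lower among protein-coding genes, and 13.1% and 14.9% among all genes. The median log2 ratio of the 48 was -0.016, beside -0.018 over all protein-coding genes, and their quartiles were -0.13 and 0.088, beside -0.15 and 0.12.

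**Figure D1:**
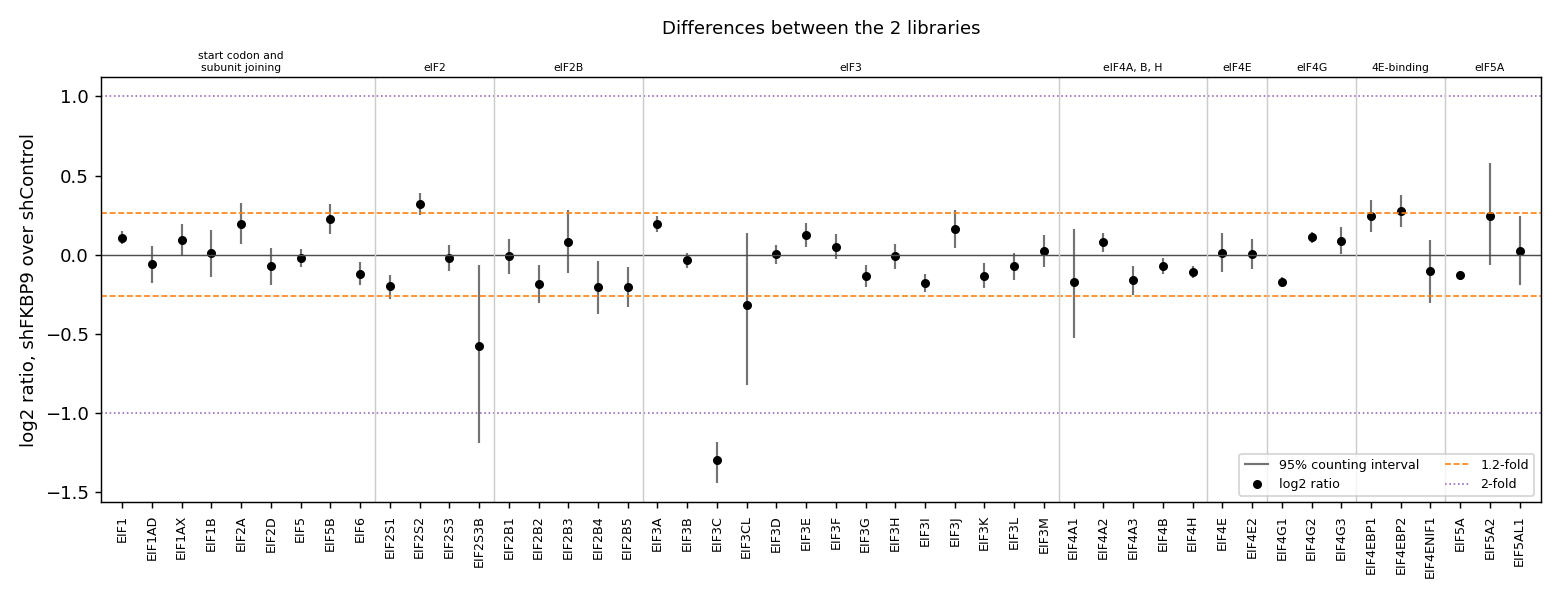
Log2 ratio of shFKBP9 over shControl for the 48 initiation factor genes that reached 1 FPKM, arranged by role, with 95% counting intervals as vertical lines and the 1.2-fold and 2-fold limits as dashed and dotted lines. EIF3C at -1.30 is the 1 gene past 2-fold, and the wide intervals of EIF2S3B and EIF3CL come with 118 and 154 fragments in all.

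Ratios of genes with few fragments scatter more, so genes were also compared at a like depth. Of the 48 genes, 41 had at least 1000 fragments in both libraries together, among 6297 protein-coding genes with as many. In that set EIF3C had the third lowest log2 ratio. FKBP9 at -3.38 and NUS1, a subunit of the dolichol-forming prenyltransferase, at -1.32 were lower, and CD24, a cell surface glycoprotein, at -1.08 was the only other gene lower past 2-fold. The background at this depth was 0.0635% lower past 2-fold and 0.0159% higher. Past 1.2-fold, 2 of the 41 were higher and 1 was lower, beside 6.54% and 7.13%. The canonical windows that EIF3C shared with other genes, 97.0%, contrasted with 9.30% for NUS1 and 0.826% for CD24.

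**Figure D2:**
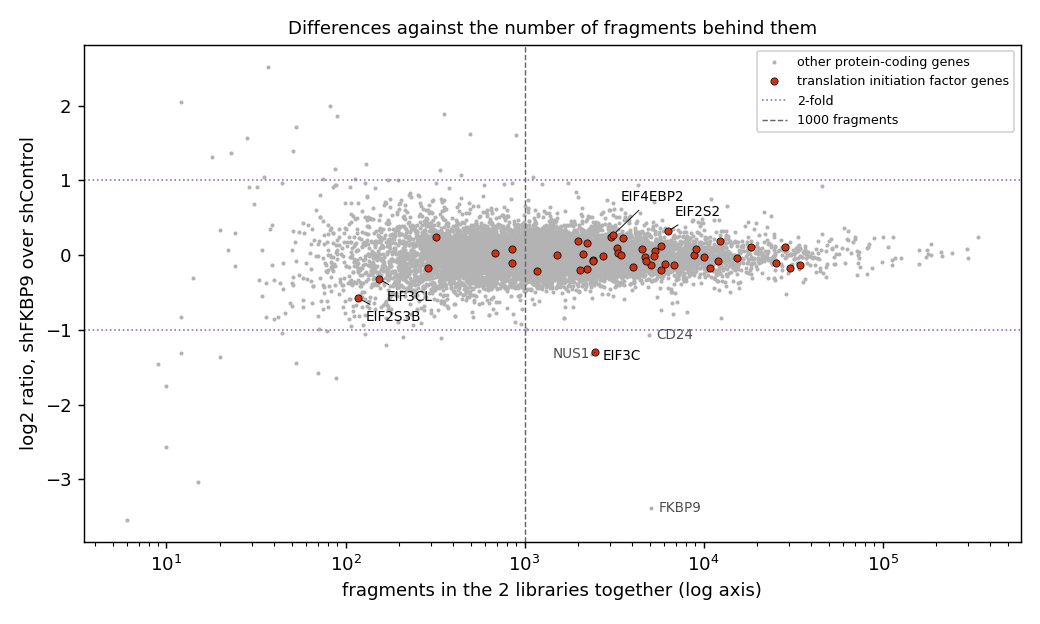
Log2 ratio of shFKBP9 over shControl against the fragments of both libraries together (log axis), with a grey point for each protein-coding gene at or above 1 FPKM and red points for the 48 initiation factor genes. EIF3C lies at -1.30 with 2467 fragments beside NUS1 at -1.32 with 2392, while EIF3CL and EIF2S3B lie at a depth where grey points spread to 2-fold.

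Counting intervals lay wholly above 0 for 12 of the 48 genes and wholly below 0 for 15. These are 25% and 31.2%, and the shares were 19.7% and 24% among protein-coding genes and 17.2% and 20.8% among all genes. At or above 1000 fragments they were 29.3% and 34.1% of the 41 genes, and the background was 23.8% and 29.7%. An interval that leaves out 0 says that the 2 libraries differed by more than counting error, and not that the conditions did.

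The eIF2 complex, which brings the initiator tRNA, gave values on both sides. EIF2S1, the alpha subunit that the stress kinases phosphorylate, was at 31.0 FPKM in shControl and 26.9 in shFKBP9, from 3169 and 2612 fragments (log2 ratio -0.20, interval -0.28 to -0.13). EIF2S2, the beta subunit, was at 60.1 and 75.0 FPKM, from 2888 and 3418 fragments. Its log2 ratio of 0.32 (interval 0.25 to 0.39) was the highest of the 48 genes. EIF2S2 shared 15.4% of its canonical windows, mostly with the pseudogene EIF2S2P4, and with that pseudogene added the log2 ratio was 0.29 (interval 0.22 to 0.36). EIF2S3, the gamma subunit, was at 38.7 and 38.2 FPKM, a log2 ratio of -0.021.

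EIF2S3B, a copy of EIF2S3 on chromosome 12 whose canonical transcript has 1 exon, was also lower past 1.2-fold. It was at 1.66 FPKM in shControl and 1.08 in shFKBP9, from 73 and 45 fragments, with a log2 ratio of -0.58 (interval -1.19 to -0.066). Summed with EIF2S3, the log2 ratio was -0.036 (interval -0.12 to 0.046), since EIF2S3 held most of the fragments. EIF2S3B shared 10.9% of its canonical windows with EIF2S3.

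eIF2B, the exchange factor that reloads eIF2 with GTP and that phosphorylated eIF2 inhibits, has 5 subunits, and all were within 1.2-fold. Intervals lay below 0 for 3 of them, beside 24% of protein-coding genes, or 29.7% of those with at least 1000 fragments. EIF2B2 was at 12.4 and 10.9 FPKM (log2 ratio -0.19, interval -0.31 to -0.066). The catalytic subunit EIF2B5 was at 8.60 and 7.46 FPKM (log2 ratio -0.20, interval -0.33 to -0.079), and EIF2B4 was at 6.67 and 5.77 FPKM (log2 ratio -0.21, interval -0.38 to -0.041). EIF2B1 and EIF2B3 had log2 ratios of -0.011 and 0.082, and both intervals included 0. The median of the 5 was -0.19, the lowest of the roles.

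Of the 10 genes for start codon choice, tRNA delivery and subunit joining, 9 were at or above 1 FPKM and all 9 were within 1.2-fold. EIF1, which guards start codon choice during scanning, was abundant at 139.2 FPKM in shControl against 150.0 in shFKBP9 (log2 ratio 0.11, interval 0.067 to 0.15). EIF5B, the GTPase that joins the ribosomal subunits, was at 11.8 and 13.7 FPKM (log2 ratio 0.22, interval 0.13 to 0.32). EIF2A, an alternative carrier of initiator tRNA, was at 12.8 and 14.7 FPKM (log2 ratio 0.20, interval 0.069 to 0.32). EIF6, which keeps the large subunit from joining too early, was at 110.6 and 101.8 FPKM (log2 ratio -0.12, interval -0.19 to -0.047). These 4 had intervals apart from 0, with 3 of the 9 above and 1 below. Shares among protein-coding genes were 19.7% and 24%, or 23.8% and 29.7% with at least 1000 fragments. EIF5, which triggers GTP hydrolysis on eIF2, was at 33.7 and 33.2 FPKM, and the intervals of EIF5, EIF1AX, EIF1AD, EIF1B and EIF2D included 0, with log2 ratios from -0.073 to 0.093.

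The cap-binding protein EIF4E was at 4.28 and 4.32 FPKM from 1091 and 1043 fragments (log2 ratio 0.012, interval -0.11 to 0.14). This level rests on the 14067 bases that the file gives EIF4E, and over its canonical transcript of 2427 bases it was 24.8 and 25.0 FPKM. Its relative EIF4E2 was at 13.7 FPKM in both (log2 ratio 0.0029). EIF4E3 had 26 fragments in shControl against 17 in shFKBP9, under the minimum. EIF4E1B, known for expression in oocytes, had 0 fragments in both, which at 3 fragments allows up to 0.0473 and 0.0498 FPKM.

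The 3 EIF4G genes gave log2 ratios on both sides of 0. EIF4G1, the main scaffold, was at 109.8 FPKM in shControl against 97.4 in shFKBP9 (log2 ratio -0.17, interval -0.21 to -0.14). EIF4G2, which lacks the site for EIF4E, was at 89.4 and 96.4 FPKM (log2 ratio 0.11, interval 0.076 to 0.14). EIF4G3 was at 13.0 and 13.8 FPKM (log2 ratio 0.087, interval 0.0029 to 0.17). All 3 lay within 1.2-fold.

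Among the helicases and their helpers, EIF4A2 was at 40.6 and 42.9 FPKM (log2 ratio 0.078, interval 0.019 to 0.14). EIF4A3, the helicase of the exon junction complex, was at 24.3 and 21.7 FPKM (log2 ratio -0.16, interval -0.25 to -0.074). The helicase cofactors EIF4B and EIF4H were at 57.1 and 54.2 FPKM and at 235.0 and 217.7 FPKM, with log2 ratios of -0.073 and -0.11. EIF4A1, the main helicase of the cap complex, was listed at only 1.64 and 1.45 FPKM from 158 and 132 fragments. Every window of its canonical transcript (100%) was shared with other annotated genes, among them the readthrough gene SENP3-EIF4A1, so this level is uncertain. EIF4A1, SENP3-EIF4A1 and the pseudogene EIF4A1P10 together had 376 and 315 fragments (log2 ratio -0.18, interval -0.40 to 0.041).

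The 4E-binding proteins keep EIF4E from EIF4G until mTOR phosphorylates them. Of the 3 genes of this role at or above the minimum, 1 was higher past 1.2-fold. That share was 9.11% among protein-coding genes, or 6.54% of those with at least 1000 fragments. EIF4EBP2 was at 11.1 FPKM in shControl and 13.5 in shFKBP9, from 1460 and 1676 fragments, a log2 ratio of 0.27 (interval 0.17 to 0.38) just past 1.2-fold, but within it with 1 FPKM added or in TPM. EIF4EBP1 was at 74.0 and 87.6 FPKM, from 1437 and 1614 fragments, a log2 ratio of 0.24 (interval 0.14 to 0.35) just within it. EIF4EBP3 had 9 fragments and 1 fragment, under the minimum, and shared 69.2% of its windows with the readthrough gene ANKHD1-EIF4EBP3. With that gene added, 31 and 19 fragments gave a log2 ratio of -0.63 (interval -1.54 to 0.24). EIF4ENIF1, which carries EIF4E into the nucleus, was at 4.10 and 3.81 FPKM, with an interval that included 0.

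EIF5A, which helps ribosomes past difficult peptide bonds, was the most abundant of the initiation factor genes. It was at 364.3 FPKM in shControl and 332.6 in shFKBP9, from 18570 and 16075 fragments (log2 ratio -0.13, interval -0.16 to -0.10). EIF5A2 was at 1.49 and 1.78 FPKM from 151 and 171 fragments (log2 ratio 0.24, interval -0.068 to 0.58), and the intronless copy EIF5AL1 had 348 and 336 fragments (log2 ratio 0.026). With EIF5AL1 and the pseudogene EIF5AP4 added, the log2 ratio was again -0.13.

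**Figure D3:**
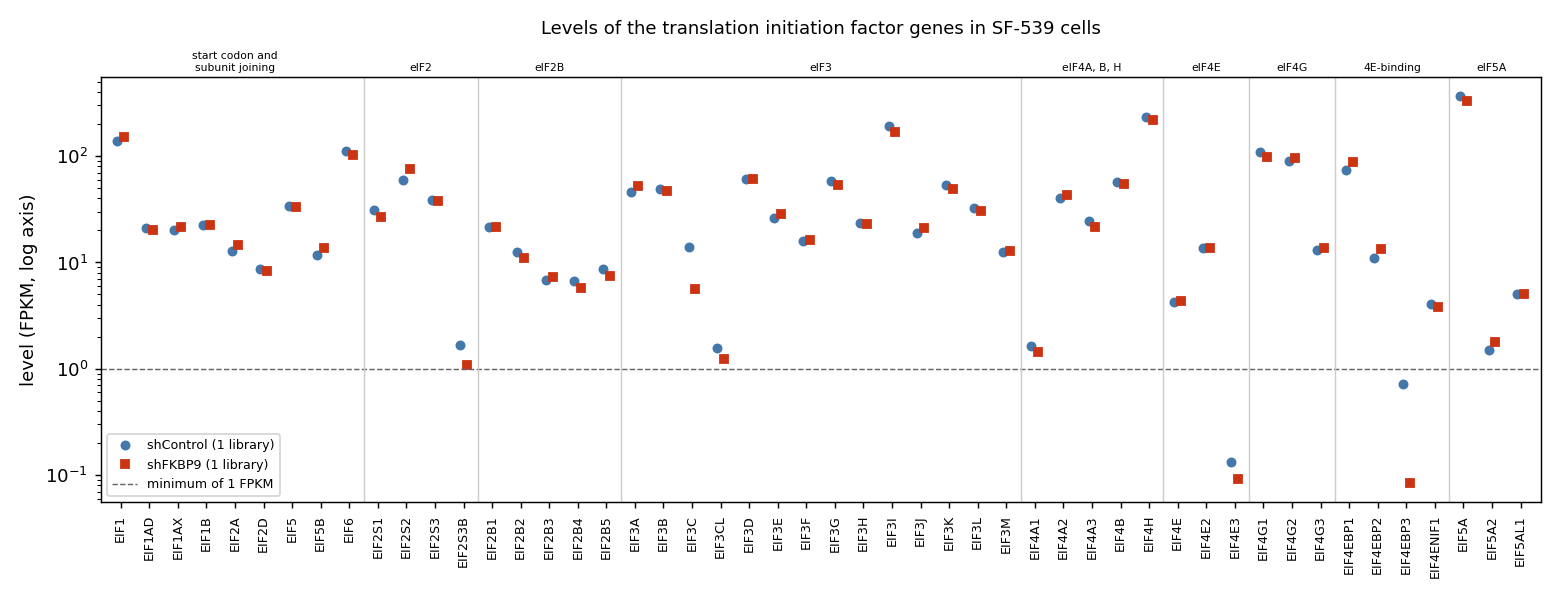
Levels in FPKM (log axis) of the initiation factor genes with at least 1 fragment, by role, with a circle for shControl and a square for shFKBP9. Levels run from EIF5A at 364.3 FPKM to genes under the dashed line at 1 FPKM, and the points of EIF3C, at 14.1 and 5.68 FPKM, are the ones most apart among genes above that line. EIF4E1B, at 0 in both libraries, and EIF1AY are not drawn.

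Sequence shared with other genes touched many of the 51 genes searched. In GENCODE release 44, 27 had 0 windows in common with transcripts of other genes, 13 shared at least 5% of their windows, and 5 shared at least 50% of their canonical windows. The last were EIF3C, EIF3CL, EIF3L, EIF4A1 and EIF4EBP3. The annotation differs from that of the authors' table, since 14 of the 51 had the same start and end in both.

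Promoter sequences (RefSeq, GRCh38.p14, from 250 bases before to 50 after the start) were given for 43 of the genes. The motif TTGCATCA, 1 of the forms bound by ATF4 and C/EBP proteins, was searched on both strands and was found in 0 of the 43, beside 0.923% of 27303 promoters. A start of C followed by at least 4 pyrimidines, the form of the TOP mRNAs that mTOR controls, was read at the annotated start base on the strand of the gene. It was present in 10 of the 43 (23.3%), beside 4.04% of all promoters. These 10 were EIF2A, EIF2D, EIF2S3, EIF2S3B, EIF3D, EIF3F, EIF3K, EIF3M, EIF4A2 and EIF4B. Their log2 ratios had a median of -0.0089, beside -0.029 for the other 30 at or above the minimum.

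Of 43 genes that act with the initiation factors, 40 reached 1 FPKM and 0 passed 2-fold. Past 1.2-fold, 2 of the 40 were higher and 4 lower, shares to be read beside the same 9.11% and 10.9%, and the median log2 ratio was -0.030. PABPC4, a poly(A)-binding protein, had the largest difference, at 42.5 FPKM in shControl against 25.0 in shFKBP9 (log2 ratio -0.77, interval -0.83 to -0.70, from 5220 and 2906 fragments). The main poly(A)-binding protein, PABPC1, was at 215.6 and 190.3 FPKM (log2 ratio -0.18, interval -0.21 to -0.15).

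The kinase MTOR was at 13.9 and 11.0 FPKM (log2 ratio -0.33, interval -0.42 to -0.26), and its partner RPTOR had a log2 ratio of -0.13. EEF2K, which inhibits elongation by phosphorylating EEF2, was at 8.66 and 6.91 FPKM (log2 ratio -0.32, interval -0.45 to -0.20). DHPS, which makes the first step of the hypusine modification of EIF5A, had only 76 and 59 fragments (log2 ratio -0.27, interval -0.80 to 0.22), and lay within 1.2-fold with 1 FPKM added (-0.16) or after scaling by the median ratio (-0.25). EEF1E1, a component of the multisynthetase complex, was at 3.43 and 4.73 FPKM (log2 ratio 0.45, interval 0.12 to 0.80). PAIP2B, an inhibitor of poly(A)-binding protein, lay under the minimum with 25 and 31 fragments.

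PPP1R15A, the stress-induced subunit that directs a phosphatase to eIF2, was at 11.4 FPKM in shControl and 15.2 in shFKBP9, from 641 and 809 fragments (log2 ratio 0.41, interval 0.26 to 0.56). Its constitutive counterpart PPP1R15B was at 8.85 and 8.41 FPKM (log2 ratio -0.073). The 4 kinases of eIF2 were all within 1.2-fold. EIF2AK3 (PERK) was at 3.53 and 3.74 FPKM (log2 ratio 0.083), and EIF2AK1 and EIF2AK4 had log2 ratios of -0.075 and -0.0045. EIF2AK2 (PKR) was at 5.61 and 6.26 FPKM (log2 ratio 0.16, interval 0.037 to 0.28). Phosphorylation of eIF2 itself cannot be read from RNA.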

How the data were processed

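Total RNA of SF-539 cells with shControl or shFKBP9 was sequenced as paired-end reads, 1 library per condition. The authors aligned the reads to hg38 with HISAT2 2.0.5, counted them per gene with featureCounts 1.5.0-p3, used edgeR for their own differential expression, and deposited FPKM with gene identifiers, positions and lengths. The settings for strand and for reads with several matches are not given in the sources used here.

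Fragments were recovered as FPKM times gene length over the smallest step of each library. The share of values within 0.01 of a whole number was 100%, which fixed the depth at 18116873 and 17158514 fragments. Log2 ratios used an addition of 0.1 FPKM, and a gene entered a count at 1 FPKM or more in either library. Genes were counted past 2-fold, the fold part of the study's threshold, and past 1.2-fold. Its p-value part was not applied. With 1 library per condition there were no tests, and exact 95% Clopper-Pearson intervals (scipy 1.17.1) cover counting error only. Recovery and intervals were tested on simulated data. Shared sequence was searched as windows of 100 bases in GENCODE release 44 transcripts, and the EIF3C and EIF3CL loci were aligned with minimap2 2.31-r1302.

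The genes named are FKBP9, every initiation factor gene (EIF1AY by name only), the eIF2 kinases, partner genes past 1.2-fold (PAIP2B, under the minimum, by its fragments only), and copies with at least 50 fragments. PABPC1, RPTOR, PPP1R15B, NUS1, CD24, SENP3-EIF4A1, ANKHD1-EIF4EBP3 and the neighbours of EIF3C were added to these with their values known. The genes and lists were chosen with earlier results of these data known. Alternatives were another addition, another scaling, other minimums, sums over copies and, added after the data were seen, canonical transcript lengths and genes with at least 1000 fragments.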

Additional observations from a re-analysis of the deposited data

How the results depend on the processing

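Under an addition of 1 or 0.01 FPKM, scaling by the median ratio and rescaling to TPM, EIF3C and the EIF3C and EIF3CL sum stayed lower past 2-fold. The EIF3C log2 ratio was -1.18 with 1 added, and FKBP9 was at -3.16, both outside their counting intervals. The number of genes higher past 1.2-fold was 1 with 1 added and 1 in TPM, since EIF4EBP2 then lay within, and with 1 added 2 were lower, since EIF3CL at -0.20 then lay within. DHPS, a partner gene, lay within with 1 added or with median scaling. Without a minimum, 2 genes were lower past 2-fold and 5 past 1.2-fold, because EIF4EBP3 and EIF4E3 entered. With at least 1000 fragments, 1 was lower past 1.2-fold. With the FPKM of EIF3C and EIF3CL added, each over its own length, the sum stood at 40.0% of the median of the other EIF3 subunits in shControl and 17.7% in shFKBP9, and with canonical transcript lengths at 54.9% and 21.3%. Of 240 further values for single genes, 239 stayed within their counting intervals and 0 were reversed past 1.2-fold. Meanwhile 6 of the initiation factor genes and EIF2AK4, all with ratios near 0, changed sign. The log2 of the median ratio was -0.017 and the TPM shift -0.018, so under these 2 scalings few values could leave their intervals. No paired analysis was possible because each condition had 1 library, and for the same reason no library could be left out. Depth limited EIF2S3B, EIF3CL, EIF4A1, EIF5A2 and the genes under 1 FPKM.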

Other observations

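Other genes of the translation apparatus were set beside the initiation factors, as lists added after the data were seen. Of 82 cytosolic ribosomal protein genes, 77 reached 1 FPKM, and their median log2 ratio was 0.016. Past 1.2-fold, 2 were higher and 1 lower, beside 9.11% and 10.9% of protein-coding genes. The 20 cytosolic aminoacyl-tRNA synthetase genes, which charge tRNAs with amino acids, had a median log2 ratio of 0.092, beside -0.018 over all protein-coding genes. Past 1.2-fold, 3 of the 20 were higher and 1 lower, beside the same 9.11% and 10.9%.

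Pseudogenes of the initiation factors gave 71 rows of the table, of which 45 had 0 fragments in both libraries and 9 had at least 50 in all. Past 1.2-fold, 0 of the 9 were higher and 1 was lower, beside 13.1% and 14.9% of all genes. This was EIF5AP4, at 33.6 FPKM in shControl and 26.7 in shFKBP9, from 283 and 213 fragments (log2 ratio -0.33, interval -0.60 to -0.072). EIF1AXP1 had 170 and 191 fragments, and EIF1AX together with it gave a log2 ratio of 0.11 (interval 0.014 to 0.20), beside 0.093 for EIF1AX alone. EIF3FP3 had 191 and 204 fragments, and EIF3F together with it gave 0.058 (interval -0.017 to 0.13). EIF2S2P4, EIF4A1P10, EIF4HP1, EIF4EP2, EIF4BP7 and EIF4BP6 had log2 ratios from -0.26 to 0.029, with intervals that included 0. EEF1G, an elongation factor gene, was listed at 0 in both libraries. A loss of its fragments in counting was not tested, so this is not read as absence of expression.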
